A study of Rattus norvegicus with 10 samples.

Results

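Interferon-stimulated genes and their regulators were followed in whole liver after indole-3-carbinol (I3C) or its vehicle, in Harlan Sprague-Dawley rats, all female. The members are a fixed list of 36 genes, each taken through its brightest probe set by the mean over all 10 arrays. In this way 33 of the 36 were measured among 14217 genes. The RNA sensor Rigi was matched through its older symbol Ddx58 to the gene named Rig1. Gbp5 and Xaf1 had no probe set in the annotation used here, and Oas1i shared its only probe set with another gene, so these 3 have no value. The dosed group is 5 livers from rats that received I3C, released from cruciferous vegetables, at 300 mg per kg in corn oil. The vehicle group is 5 livers from rats that received corn oil alone, a dose of 0 mg per kg. Both groups were gavaged on 5 days per week, and the labels give 13 weeks for both, although the title and design text of the series speak of a long-term study. No age or animal number is given in the labels, so the p-values measure only the spread between these samples.

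Interferons are cytokines that put cells into an antiviral state. Type I interferon acts through the receptor of Ifnar1 and Ifnar2 and the kinases Jak1 and Tyk2 to form ISGF3, a complex with Stat2 and Irf9 that binds the interferon-stimulated response element (ISRE). Type II interferon, made by T and NK cells, acts through Ifngr1 and Ifngr2 on genes with a gamma-activated site (GAS), and it drives Irf1, guanylate-binding proteins and the chemokines Cxcl9, Cxcl10 and Cxcl11. In liver a low basal level of interferon-stimulated genes is found in hepatocytes and in Kupffer cells, the resident macrophages. The list was divided by this textbook knowledge into a type I set of 25 genes, 23 of them measured, a type II set of 7 genes, 6 of them measured, and 4 upstream genes, Ifnar1, Ifngr1, Irf2 and Irf3. Many type I genes also respond to type II interferon, so the division is one of emphasis.

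The response elements can be read in the promoters of the members. RefSeq windows of the GRCr8 assembly, from 250 bases before to 50 after the start of the gene, were given for 28 of the 36 members. They were searched on both strands for the ISRE core, GAAA and GAAA with any 2 bases between them, which reads TTTC and TTTC on the opposite strand, and for the GAS core TTCNNNGAA, which is its own reverse complement. The ISRE core stood in 15 of the 28 windows, whereas 3.92% of 33469 windows of the same length over all genes hold it. It was in 12 of 18 type I windows, 3 of 7 type II windows and 0 of 3 upstream windows. The GAS core stood in 8 of the 28 windows, 4 of them in the type I and 4 in the type II set, against 8.87% of all windows. Of the 7 members that fell in dosed livers, 4 had a window, and all 4 of these windows held an ISRE core. Among type I members that were measured and did not pass, 7 of 13 windows held it. The fallen members with a window include Gbp2 of the type II set, so these counts come from unlike sets. A link between the core and the falls was not tested. The 4 windows of fallen members are shown first. Bst2, Oas1a, Ifi44 and Cxcl10 follow, which also hold an ISRE core and did not pass the test, and the GAS cores of Irf1 and Irf8 close the set. Each is written 5′ to 3′ on the strand of its gene, with the core in capitals.
Ifit3, chr1:241527267-241527306, plus strand: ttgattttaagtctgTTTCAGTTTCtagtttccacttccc
Irf7, chr1:205800068-205800107, minus strand: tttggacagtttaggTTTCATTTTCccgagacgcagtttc
Parp14, chr11:78408043-78408082, plus strand: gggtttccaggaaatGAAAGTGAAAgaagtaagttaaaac
Gbp2, chr2:234005681-234005720, plus strand: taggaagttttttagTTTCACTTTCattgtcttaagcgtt
Bst2, chr16:18255068-18255107, minus strand: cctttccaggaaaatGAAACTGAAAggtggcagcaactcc
Oas1a, chr12:41330416-41330455, plus strand: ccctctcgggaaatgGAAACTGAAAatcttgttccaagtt
Ifi44, chr2:243303842-243303881, minus strand: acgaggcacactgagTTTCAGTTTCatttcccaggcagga
Cxcl10, chr14:15988816-15988847, plus strand: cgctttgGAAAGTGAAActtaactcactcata
Irf1, chr10:38417778-38417816, plus strand: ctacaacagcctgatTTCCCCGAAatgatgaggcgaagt
Irf8, chr19:65699089-65699127, plus strand: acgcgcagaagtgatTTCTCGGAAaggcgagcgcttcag

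In Ifit3, Irf7 and Gbp2 the core lies in the TTTC form at 44, 69 and 31 bases before the start, and in Parp14 in the GAAA form at 76 bases before it. Oas1a and Bst2 each hold 2 overlapping ISRE cores in which 1 GAAA block is shared. In Parp14 a GAS core begins at 87 bases before the start and ends just before the ISRE core. Irf8 holds 2 GAS cores, at 180 and 161 bases before the start, and only the first is in capitals above. The short core of the xenobiotic response element, GCGTG, which the aryl hydrocarbon receptor binds, was found in 9 of the 28 windows, and 29.7% of all windows hold it. Among the 4 fallen members with a window, 1 held that core, Ifit3. A match is a description of these letters and not a measured binding site.

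Between dosed and vehicle livers 7 of the 33 measured members fell and 0 rose. These calls use limma, a linear model with moderated variances, two-sided, at an adjusted p (Benjamini-Hochberg over all 31042 probe sets) below 0.05. Over all 14217 genes 3.11% fell and 3.32% rose by the same rule. The fallen members are Ifit3, Irf7, Isg15, Mx2, Dhx58 and Parp14 of the type I set and Gbp2 of the type II set. At an unadjusted limma p under 0.05, 16 members were lower and 1 was higher, against 10.2% and 9.62% of all genes. In 7 members every dosed array lay below every vehicle array and in 0 above, against 4.07% and 4.61% of all genes. The difference was below 0 in 29 of 33 members, while 51.4% of all genes were below 0. The median difference was -0.29 on the log2 scale in the type I set, -0.10 in the type II set and -0.13 in the upstream genes, beside 0.00 over all genes. Folds were small: the called falls ran from 1.25-fold to 1.54-fold.

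**Figure D1:**
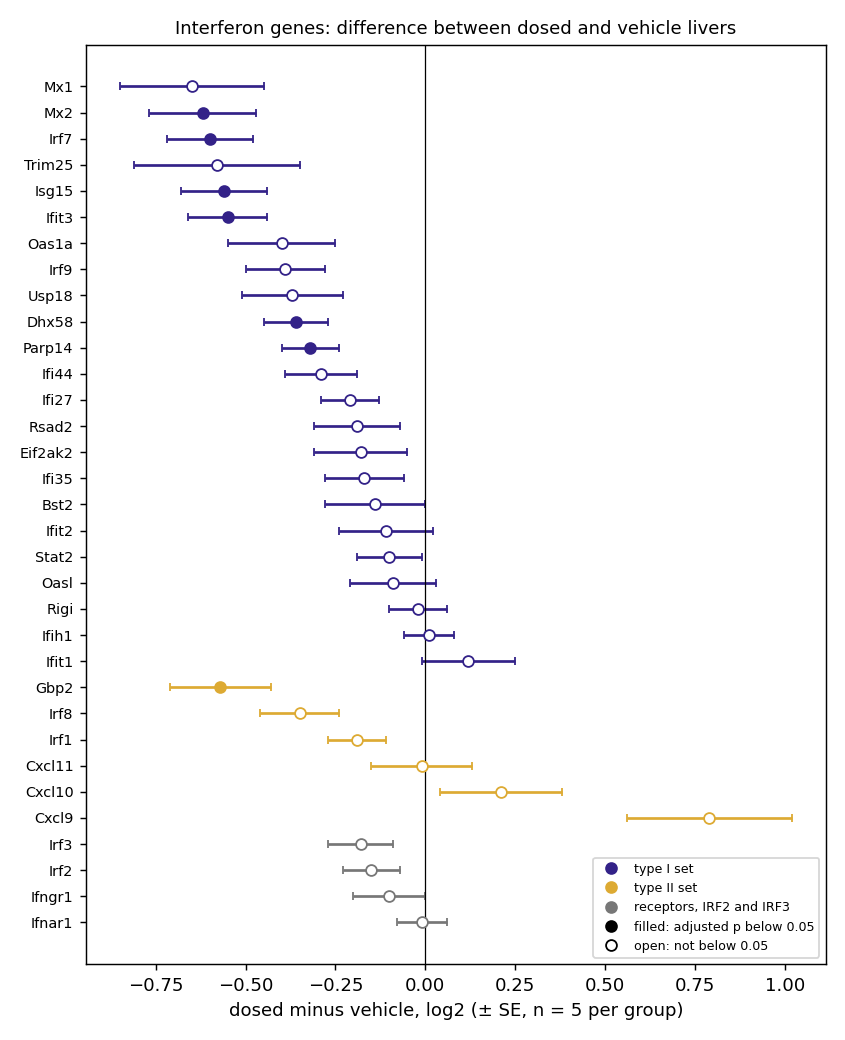
Difference between dosed and vehicle livers (log2, horizontal axis, ± SE, n = 5 per group) for each of the 33 measured interferon genes (vertical axis), by set. The 7 filled points passed the test, and all 7 lie left of 0, while Cxcl9 lies farthest to the right at 0.79.

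A measure of RNA quality moved with the groups. For the GAPDH controls of the array, the 3′ signal exceeded the 5′ signal by log2 values that lay between 0.32 and 0.65 in vehicle arrays and between 0.16 and 0.29 in dosed arrays, without overlap. With that difference in the model 0 of the 33 members were called in either direction, against 0.802% of all genes lower and 0.802% higher, and 6 members were lower and 1, Ifit1 (0.45 ± 0.18, SE), was higher at an unadjusted limma p under 0.05, against 9.89% and 7.4% of all genes. Of the 7 fallen members, Gbp2 (-0.75 ± 0.23, SE), Mx2 (-0.67 ± 0.26), Ifit3 (-0.65 ± 0.17) and Isg15 (-0.53 ± 0.20) stayed near or beyond their size without it. Irf7 (-0.33 ± 0.18), Parp14 (-0.22 ± 0.12) and Dhx58 (-0.18 ± 0.13) were smaller there. The median of the type I set was -0.23 in this model, and 26 of 33 members were below 0, as were 47.9% of all genes. The beta-actin controls gave another such measure, in which the groups overlapped. Their 3′ minus 5′ values ran from 1.45 to 1.74 in vehicle arrays and from 1.17 to 1.53 in dosed arrays. Vehicle 5 was the highest array by GAPDH (0.65) and the lowest vehicle array by beta-actin (1.45). In a fit that used beta-actin instead of GAPDH, Mx2, Ifit3 and Irf7 stayed called and the other fallen members did not. The part of RNA quality in the differences of the members cannot be told apart from that of the dose.

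**Figure D2:**
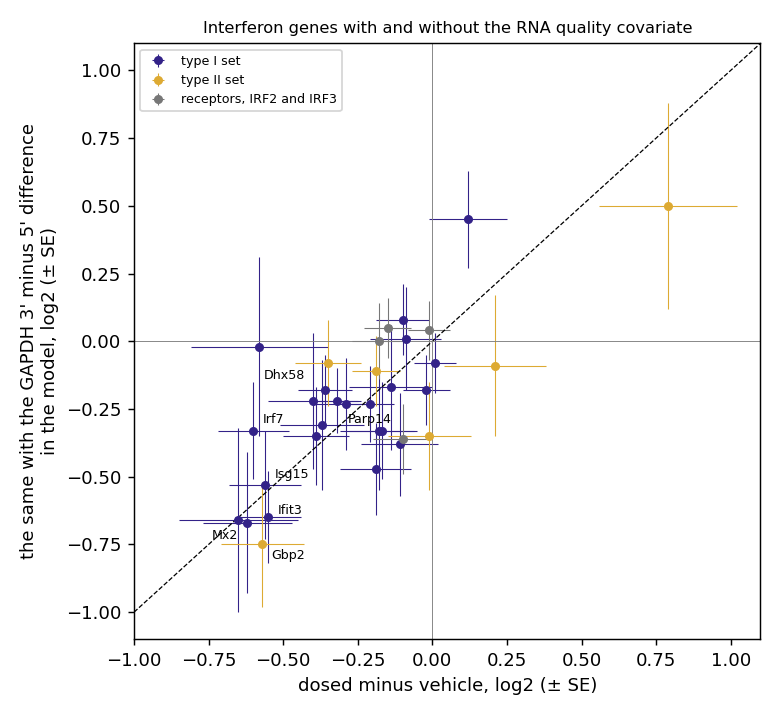
Difference of each member without (horizontal) and with (vertical) the GAPDH 3′ minus 5′ difference in the model, both on the log2 scale ± SE, with the dashed line marking equal values. Isg15, Ifit3, Mx2 and Gbp2 lie near the line or below it, and Irf7 lies above it at -0.33.

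The interferons themselves were not called. Ifnb1, the fibroblast interferon, had a mean of 4.95 in vehicle livers and differed by 0.18 ± 0.09 (SE, limma adjusted p = 0.349). Ifng, the type II interferon, had a mean of 3.76 and differed by -0.04 ± 0.08 (limma adjusted p = 0.877). Both levels were below the median of all probe sets, 6.24.

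None of the 4 receptor chains passed the test. Ifnar1, the signalling chain of the type I receptor, was 7.72, 7.69, 7.70, 7.68 and 7.84 in vehicle livers 1 to 5 and 7.62, 7.66, 7.65, 7.84 and 7.82 in dosed livers 1 to 5. The groups overlapped throughout, at -0.01 ± 0.07 (SE). Its 6 probe sets differed by -0.04 to 0.27, with 4 above 0 and 2 below, and 0 passed. Ifngr1, the ligand-binding chain of the type II receptor, was between 9.34 and 9.79 in vehicle and between 9.20 and 9.61 in dosed livers (-0.10 ± 0.10), and differed by -0.36 ± 0.13 with the GAPDH difference in the model, which did not pass either (adjusted p = 0.237). Of the partner chains outside the list, Ifnar2 differed by 0.09 ± 0.08 and Ifngr2 by 0.08 ± 0.07.

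Among the sensors of viral RNA, Dhx58 fell and the 2 receptors that signal did not pass. Dhx58 (LGP2), which tunes the other sensors, was 6.70, 6.76, 6.93, 6.73 and 6.94 in vehicle livers and 6.45, 6.60, 6.36, 6.22 and 6.61 in dosed livers. Every dosed liver was below every vehicle liver, with a difference of -0.36 ± 0.09 (SE, limma adjusted p = 0.0326; n = 5 per group). The other probe sets of Dhx58, at -0.24 ± 0.09 and -0.32 ± 0.12, pointed the same way and did not pass. The names of the brightest one and of the one at -0.24 carry the mark of the manufacturer for probes that may bind other transcripts. Its call depended on vehicle 2 and 3 and dosed 1, 3 and 4, for leaving out any of them ended it (adjusted p as high as 0.0854). Rigi (-0.02 ± 0.08) and Ifih1 (0.01 ± 0.07), the RNA helicases that start the signal, had overlapping groups and did not pass. Trim25, the ubiquitin ligase that activates Rigi, lay at -0.58 ± 0.23, short of the threshold (adjusted p = 0.213), and at -0.02 ± 0.33 with the GAPDH difference in the model. Its dosed values were 9.79, 10.11, 9.94, 8.78 and 10.10, of which dosed 4 stood far below the rest.

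Of the signal and transcription factors only Irf7 was called. Irf7, the factor that amplifies the type I response, was 8.93, 8.76, 8.80, 8.49 and 9.16 in vehicle livers and 8.18, 8.54, 8.06, 8.28 and 8.10 in dosed livers. The groups met at a single point, dosed 2 standing above vehicle 4, and the difference was -0.60 ± 0.12 (SE, limma adjusted p = 0.0133). It was called with each array left out in turn, between -0.68 and -0.51. Irf9, the DNA-binding part of ISGF3, was 8.96, 8.90, 8.85, 8.53 and 8.94 against 8.37, 8.70, 8.18, 8.54 and 8.43. Vehicle 4 stood apart from the other vehicle livers at the level of the dosed ones, and Irf9 missed the threshold at -0.39 ± 0.11 (adjusted p = 0.0549), with its other probe set at -0.38 ± 0.12. It passed without vehicle 4 (adjusted p = 0.0191) or dosed 2 (0.0341), and narrowly so in 3 other settings: bright probe sets only (0.0387), the mean of its probe sets (0.0418) and array weights (0.0461). Stat2, another part of that complex, differed by -0.10 ± 0.09 and by -0.13 ± 0.09 in its other probe set. Irf3 (-0.18 ± 0.09) and Irf2 (-0.15 ± 0.08), which are present before any stimulus, did not pass. Both lay at 0.00 ± 0.14 and 0.05 ± 0.11 with the GAPDH difference in the model.

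**Figure D3:**
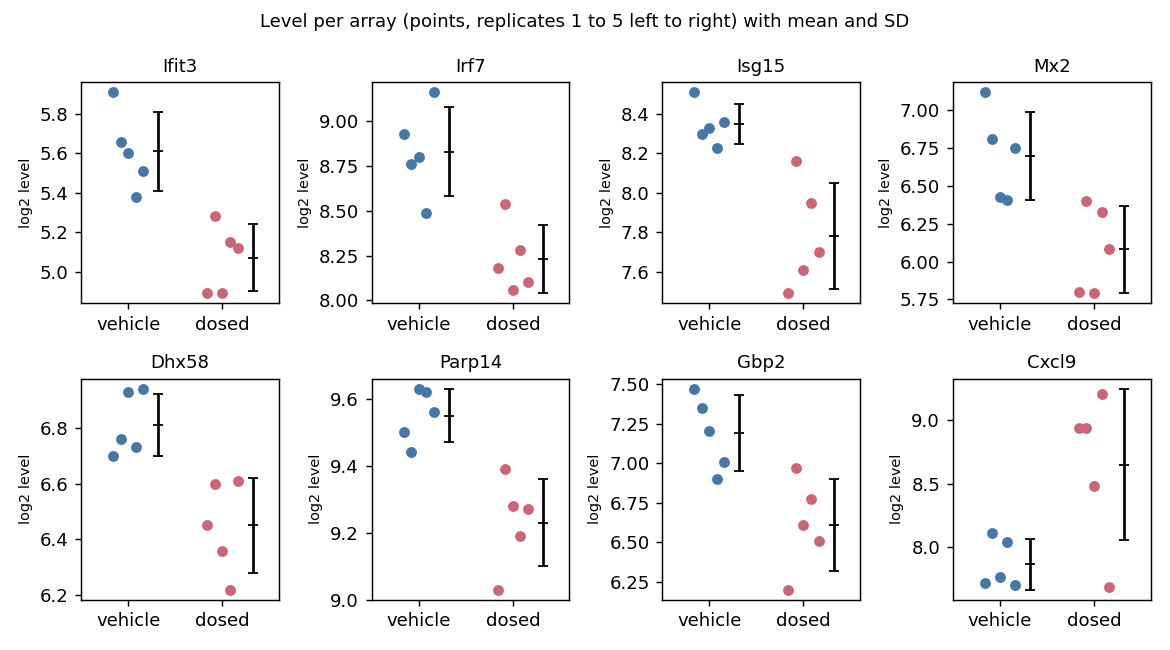
Log2 level in each of the 5 vehicle and 5 dosed livers (points) with the mean and SD of the group (bar) for the 7 members that fell and for Cxcl9. In Ifit3, Isg15, Mx2, Dhx58 and Parp14 the groups do not overlap, whereas 4 of 5 dosed livers are above all vehicle livers for Cxcl9 and dosed 5 is not.

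Antiviral effectors split into some that fell and neighbours that did not pass. Ifit3, which binds the other IFIT proteins on viral RNA, was 5.91, 5.66, 5.60, 5.38 and 5.51 in vehicle livers and 4.89, 5.28, 4.89, 5.15 and 5.12 in dosed livers. The groups did not overlap and the difference was -0.55 ± 0.11 (SE, limma adjusted p = 0.00966), the lowest adjusted p of all members. Ifit3 was dim, with means of 5.61 in vehicle and 5.07 in dosed livers, below the median of all probe sets, 6.24. It was called with any single array left out, at -0.60 to -0.47. Ifit2, its neighbour on chromosome 1 with 0 genes between them, differed by -0.11 ± 0.13, and Ifit1, 2 genes away on the other side, by 0.12 ± 0.13. Neither passed, and for both the dosed values lay within the range of the vehicle values. Whether Ifit3 differs from Ifit1 or Ifit2 in its response was not tested.

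Mx2, a dynamin-like GTPase with antiviral activity, was 7.12, 6.81, 6.43, 6.41 and 6.75 in vehicle livers and 5.80, 6.40, 5.79, 6.33 and 6.08 in dosed livers. Dosed 2 and dosed 4 came close to the lowest vehicle livers, vehicle 3 and vehicle 4, without crossing them, and the difference was -0.62 ± 0.15 (SE, limma adjusted p = 0.0365). The other probe set of Mx2 differed by -0.15 ± 0.16 and did not pass, and the call ended without vehicle 1, vehicle 2, dosed 1, dosed 3 or dosed 5, where the adjusted p reached 0.0926. Its paralog Mx1, 1 gene away on chromosome 11, had the lowest difference of all members, -0.65 ± 0.20, and did not pass (adjusted p = 0.0965). Mx1 was 6.48, 6.34, 6.39, 5.99 and 6.28 against 4.98, 6.20, 5.24, 5.91 and 5.89, so that dosed 1 and dosed 3 were far lower than dosed 2, 4 and 5. Without dosed 2 the difference of Mx1 was -0.79 and passed (adjusted p = 0.0415). Mx1 and Mx2 are close relatives, and the files do not show how far a probe set of one also reads the other.

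The remaining effectors did not pass. Oas1a, which makes the 2-5A messenger that activates RNase L, was 7.10, 7.33, 7.20, 6.80 and 7.48 against 6.82, 7.19, 6.33, 6.81 and 6.73 (-0.40 ± 0.15, adjusted p = 0.185), with vehicle 4 and dosed 3 the lowest of their groups. Oasl differed by -0.09 ± 0.12. Rsad2 (viperin), which makes a chain-terminating nucleotide, differed by -0.19 ± 0.12, Eif2ak2 (PKR), the kinase that halts translation on double-stranded RNA, by -0.18 ± 0.13, and Bst2 (tetherin), which holds budding virus at the membrane, by -0.14 ± 0.14. In each of these the groups overlapped.

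The ubiquitin-like modifier Isg15 fell. It was 8.51, 8.30, 8.33, 8.23 and 8.36 in vehicle livers and 7.49, 8.16, 7.61, 7.95 and 7.70 in dosed livers. The vehicle livers lay close together (SD 0.10), the dosed ones ranged more widely (SD 0.27), and the groups did not overlap. The difference was -0.56 ± 0.12 (SE, limma adjusted p = 0.0138), called with each array left out in turn between -0.66 and -0.49. Usp18, which removes Isg15 from proteins and restrains the type I receptor, was 8.26, 8.08, 8.26, 8.14 and 8.05 against 7.87, 8.34, 7.37, 7.64 and 7.74. Here dosed 2 was the highest of all 10 livers while the other 4 dosed livers were below every vehicle liver. Usp18 did not pass at -0.37 ± 0.14 (adjusted p = 0.198), and passed without dosed 2 at -0.50 (adjusted p = 0.0184).

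Of the other induced genes, Parp14 fell. This ADP-ribosyltransferase was 9.50, 9.44, 9.63, 9.62 and 9.56 in vehicle livers and 9.03, 9.39, 9.28, 9.19 and 9.27 in dosed livers, without overlap. The difference was -0.32 ± 0.08 (SE, limma adjusted p = 0.0273), and -0.27 ± 0.09 in its other probe set, which did not pass. The call ended without vehicle 1, vehicle 3, vehicle 4, dosed 1, dosed 4 or dosed 5, where the adjusted p reached 0.0733. Ifi27, a mitochondrial protein, differed by -0.21 ± 0.08 from a vehicle level of 13.26. All its dosed livers were below all vehicle livers, and it did not pass (adjusted p = 0.195). Ifi44 differed by -0.29 ± 0.10 and Ifi35 by -0.17 ± 0.11, and neither passed.

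Of the 6 measured type II genes 1 fell and 0 rose, against 3.11% and 3.32% of all genes. Gbp2, a guanylate-binding protein that attacks the vacuoles of intracellular pathogens, was 7.47, 7.35, 7.20, 6.90 and 7.01 in vehicle livers and 6.20, 6.97, 6.61, 6.77 and 6.51 in dosed livers. Dosed 2 alone reached into the vehicle range, and the difference was -0.57 ± 0.14 (SE, limma adjusted p = 0.0359). The call ended without vehicle 1, 2 or 3 or dosed 1, 3, 4 or 5 (adjusted p reaching 0.0901), at differences between -0.66 and -0.47. Irf8, a transcription factor of macrophages and dendritic cells, was lower in every dosed liver (7.70 to 8.16) than in any vehicle liver (8.20 to 8.72) and did not pass at -0.35 ± 0.11 (adjusted p = 0.109). With the GAPDH difference in the model Irf8 lay at -0.08 ± 0.16. Irf1, the early factor of the type II response, differed by -0.19 ± 0.08 (adjusted p = 0.239).

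Cxcl9, a chemokine that attracts activated T cells and is induced mainly by type II interferon, pointed the other way. It was 7.71, 8.11, 7.76, 8.04 and 7.70 in vehicle livers and 8.94, 8.94, 8.48, 9.21 and 7.68 in dosed livers. In 4 dosed livers it was above every vehicle liver, while dosed 5 was the lowest of all 10. The difference of the brightest probe set was 0.79 ± 0.23 (SE, a 1.73-fold difference) and did not pass (limma adjusted p = 0.079). The other probe set was 7.09, 7.31, 7.08, 7.24 and 7.16 against 8.45, 8.42, 7.81, 8.70 and 7.16. It showed the same order of dosed livers except for the near-equal dosed 1 and dosed 2, and rose by 0.93 ± 0.23 (limma adjusted p = 0.0365). That call ended without vehicle 1, 2, 3 or 4 or dosed 1, 2 or 4 (adjusted p reaching 0.0972). Without dosed 5 the brightest probe set passed at 1.03 (adjusted p = 0.00199), an array picked for mention because of its value. With the replicate number as a block in the model, which pairs samples by number alone, the brightest probe set passed too (0.79, adjusted p = 0.039), whereas with the GAPDH difference it lay at 0.50 ± 0.38.

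Cxcl10 and Cxcl11, ligands of the same receptor Cxcr3, lie in a row with Cxcl9 on chromosome 14, with Cxcl10 in the middle, and did not pass. Cxcl10 was 6.56, 6.64, 6.52, 6.43 and 6.31 against 6.83, 6.93, 6.33, 7.20 and 6.19 (0.21 ± 0.17). Its dosed 1, 2 and 4 were above every vehicle liver and its dosed 3 and 5 were not. Cxcl11 differed by -0.01 ± 0.14, with dosed livers between 10.26 and 10.66 inside the vehicle range of 9.97 to 10.77.

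Across arrays the type I genes varied more among dosed livers than genes in general. The SD was wider in dosed than in vehicle livers in 15 of 23 type I genes, against 33.8% of all genes. The median SD of the type I set was 0.18 in vehicle and 0.20 in dosed livers, whereas over all genes it was 0.15 and 0.11. Dosed 2 had the highest dosed value in 17 of the 23 type I genes, and dosed 1 and dosed 3 had the lowest in 10 and 9. Each array can also be set against the vehicle mean of each gene. The median over the type I set was then -0.36, -0.07, -0.39, -0.37 and -0.22 in dosed livers 1 to 5 and between -0.08 and 0.10 in vehicle livers. Dosed 2 was thus close to the vehicle livers in its type I genes, and 14 of its 23 were below the vehicle mean against 20 or 21 in each other dosed liver. For Cxcl9 the same difference was 1.08, 1.08, 0.62, 1.35 and -0.18, and for Gbp2 it was -0.98, -0.22, -0.57, -0.42 and -0.68. The order of the dosed livers was not the same in these 3 measures: dosed 5 had the lowest Cxcl9, dosed 1 the lowest Gbp2 and dosed 3 the lowest type I median.

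Other genes of the pathway came from a separate list of 77, also chosen with earlier results of these data known. Of its 62 measured genes 9 fell, 1 rose and 52 did not pass. The difference was below 0 in 64.5% of them, against 51.4% of all genes. Over all genes 3.11% fell and 3.32% rose, and the median difference of the list was -0.07. Igtp (-0.65 ± 0.11, SE, limma adjusted p = 0.00502) and Irgm (-0.46 ± 0.08), GTPases induced by type II interferon, fell without overlap between groups. Rtp4, a chaperone of receptors that type I interferon induces, fell by 0.55 ± 0.11, from 10.49 to 10.75 in vehicle livers to 9.77 to 10.42 in dosed livers. Il15, the cytokine that maintains NK cells, fell by 0.57 ± 0.10, and Nampt, which makes an NAD precursor, by 0.43 ± 0.07. Sp110 (-0.32 ± 0.07), Lgals3bp (-0.42 ± 0.10) and Helz2 (-0.37 ± 0.09) also fell. Tyk2, the kinase bound to Ifnar1, was 9.29, 9.25, 9.04, 9.20 and 9.11 against 8.63, 8.71, 8.77, 8.72 and 8.94, and fell by 0.42 ± 0.07 (limma adjusted p = 0.00536). Its partner kinase Jak1 differed by 0.05 ± 0.07 and the feedback inhibitor Socs1 by -0.03 ± 0.06. Ticam1, the adaptor of Toll-like receptor 3, was the gene that rose (0.59 ± 0.15, adjusted p = 0.0411). The calls of Tyk2, Igtp, Irgm, Rtp4, Nampt and Il15 held with each array left out in turn. Those of Lgals3bp, Helz2 and Ticam1 ended without 6, 7 and 8 of the 10 arrays, each left out alone, and that of Sp110 without dosed 5 (adjusted p = 0.0556). With the GAPDH difference in the model 0 of the 62 were called, against 0.802% of all genes lower and 0.802% higher.

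Markers of other liver cells were read beside these genes, because whole liver was measured and fewer cells of a type cannot be told apart from less RNA per cell. Hepatocyte markers were at the top of the scale, Alb at 15.11 in vehicle livers with a difference of 0.00 ± 0.05. Alb lay next to the highest value of any probe set, 15.12, so its flat values say little. Of the 5 hepatocyte markers 1 rose, Apoa1 (0.38 ± 0.07), against 3.32% of all genes. Of 7 measured macrophage and Kupffer cell markers 2 fell, Cd5l (-0.52 ± 0.12, SE, limma adjusted p = 0.0256) and Aif1 (-0.38 ± 0.09, adjusted p = 0.0314). Over all genes 3.11% fell. Both marker calls ended without 6 of the 10 arrays, each left out alone. At an unadjusted limma p under 0.05, 6 of the 7 were lower, against 10.2% of all genes, and 3 of the 7 did not overlap between groups, against 4.07%. With the GAPDH difference in the model the median was -0.46. There 4 of the 7 were lower at an unadjusted limma p under 0.05, against 9.89% of all genes. Without it all 7 were below 0, with a median of -0.36, and the brightest, Clec4f of Kupffer cells (-0.34 ± 0.10), did not pass. The summed level of that list ran from 12.4 to 12.8 in vehicle and from 11.9 to 12.4 in dosed livers (log2). As median deviations the list lay between -0.01 and 0.36 in vehicle livers and between -0.51 and -0.06 in dosed livers, without overlap, and dosed 5 was the lowest. The part of macrophage content in the interferon genes was not tested.

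**Figure D4:**
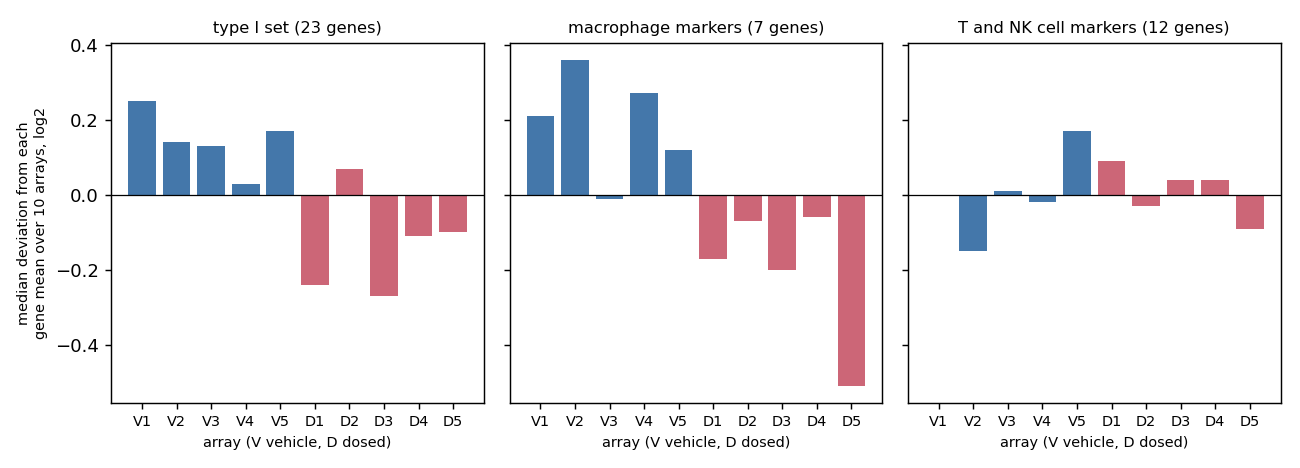
Median deviation of each array from the mean of each gene over all 10 arrays (log2, vertical axis) in vehicle (V) and dosed (D) livers for 3 lists. The type I set is above 0 in all vehicle livers and below 0 in every dosed liver but dosed 2, and the macrophage markers are lowest in dosed 5. The T and NK cell markers lie between -0.15 and 0.17 in vehicle livers and between -0.09 and 0.09 in dosed livers.

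Of 12 T and NK cell markers, the cells that make type II interferon and that Cxcl9 attracts, 1 rose and 0 fell. Over all genes 3.32% rose and 3.11% fell. Klrb1a, a lectin-like receptor of NK cells, rose from between 5.03 and 5.38 to between 5.61 and 5.87 (0.56 ± 0.08, SE, limma adjusted p = 0.00159) and kept its call with the GAPDH difference (0.78). The median of the list was 0.00, its summed level ran from 9.25 to 9.47 in vehicle and from 9.26 to 9.44 in dosed livers, and Cd2 (0.13 ± 0.06) and Cd4 (-0.11 ± 0.10), the brightest members, did not pass. Apart from Cd2 and Cd4, the markers of the list, Klrb1a included, had means below the median of all probe sets, 6.24. At an unadjusted limma p under 0.05, 2 of the 12 were lower, close to the 10.2% of all genes. Of 3 B cell, 3 neutrophil, 4 plasmacytoid dendritic cell and 4 sinusoidal endothelial markers 0 were called, and the pan-leukocyte marker Ptprc differed by -0.20 ± 0.12. By the unadjusted p, 1 of the 4 dendritic cell and 1 of the 4 endothelial markers were lower, against 10.2% of all genes. The measured B cell and neutrophil markers all had means below 6.24 too, and flat values of such dim markers say little about cell content.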

How the data were processed

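Total RNA of 10 rat livers was measured on RG230_2.0 arrays. The deposited values are log2 levels per probe set made by the authors with RMA, per the submitters' processing notes, whose version is not given in the sources used here. That method brings all arrays to a like distribution (array medians 6.21 to 6.29) and compresses large folds. Of 31099 probe sets, 57 controls served as quality measures only. Gene names come from GEO's annotation of the platform, brought up to date by Entrez ID from RefSeq (GRCr8, names only). A single gene was named for 20826 probe sets, several for 436, which were not used, and no gene for 9780. The 2 groups were compared by limma (version 3.58.1, under R 4.3.3) using lmFit followed by eBayes with no trend, whose prior had 4.60 degrees of freedom, and p-values were adjusted over 31042 probe sets. ± after a difference is its SE. The fit was tested on simulated data. The number of arrays limits the precision. Replicate numbers were not treated as pairs, since the labels do not say whether they pair the samples. The members, sets, gene lists, motifs and alternatives were chosen with earlier results of these data known. The text names all measured members, the called genes of the pathway list (at most 10) with 8 preset ones where measured, and up to 3 called and the 2 brightest markers of a list that is described. Of 1878 overlapping promoter windows on opposite strands, 1878 were reverse complements of each other. Alternatives changed the variance model, the normalisation, the filter on dim probe sets, the choice of probe set, the threshold, the replicate block and RNA quality covariates, and left out each array in turn.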

Additional observations from a re-analysis of the deposited data

Results flagged for a closer look

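In 8 of 66 groups of 5 livers (33 genes in 2 groups) the highest or lowest array stood far from the others, where chance gives about 1 in 20, or 3.3. Vehicle 5 was high in Irf8 (8.72 against 8.20 to 8.32) and in Ifnar1 (7.84 against 7.68 to 7.72) and low in Rsad2 (6.90 against 7.35 to 7.52). That array also had the lowest array weight (0.24, the others 0.68 to 1.65) and the highest GAPDH 3′ minus 5′ difference (0.65). Vehicle 4 was low in Irf9 (8.53 against 8.85 to 8.96) and high in Ifi44 (7.34 against 7.02 to 7.10). Dosed 4 was low in Trim25 (8.78 against 9.79 to 10.11) and in Bst2 (10.05 against 10.62 to 10.70). Dosed 5 was low in Ifngr1 (9.20 against 9.50 to 9.61). None of these 6 type I and type II genes nor the 2 receptor chains was called with all arrays in the fit.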

How the results depend on the processing

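Of the 7 fallen members, all 7 were called with limma-trend, renewed quantile normalisation and array weights. With probe sets above the median level only, 6 were called of the 6 tested, since Ifit3 is too dim to enter, and 6 with median centring and with the mean of probe sets. Members called lower were 2 with the replicate block (Ifit3 and Irf7, 2 of the type I and 0 of the type II set), 0 with ordinary variance, 1 at a threshold of 0.01, 0 with the GAPDH covariate and 3 with the beta-actin covariate. The type II count, 1 in the report, was 0 with median centring and these 5 settings. With the replicate block and with the mean of probe sets 1 member, Cxcl9, was called higher, and Irf9 was newly called lower with bright probe sets only, array weights and the mean of probe sets. The deviations of same-numbered arrays correlated between -0.28 and 0.22. With 1 array left out, members called lower ranged from 3 to 10, type I from 3 to 9, type II from 0 to 1, and members called higher, all type II, from 0 to 1.

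Other pathway genes called higher were 0 or 2 where the report has 1: 0 with the replicate block, ordinary variance, the threshold of 0.01 and both covariates, 2 with quantile normalisation, array weights and the mean of probe sets, and 0 to 1 with 1 array left out. Those called lower were 5 at 0.01, 0 with the GAPDH covariate and 4 with the beta-actin covariate. Over all genes 472 rose and 442 fell. Those that rose were 253 at 0.01, 114 with the GAPDH and 282 with the beta-actin covariate, and those that fell were 676 with array weights, 252 with ordinary variance, 184 at 0.01, 114 and 216. With 1 array left out those that fell ranged from 305 to 699, the highest without vehicle 5.

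The median of the upstream genes was 0.02 with the GAPDH covariate. The differences of some members changed sign without a call. With the GAPDH covariate these were Irf2 (0.05), Irf3 (0.00), Oasl (0.01), Stat2 (0.08), Ifih1 (-0.08), Cxcl10 (-0.09) and Ifnar1 (0.04). With the beta-actin covariate they were Ifit1 (-0.05), Ifit2 (0.07), Ifih1 (-0.05), Bst2 (0.07), Rigi (0.02) and Cxcl11 (0.23). Without a covariate Irf2, Irf3 and Cxcl10 lay at -0.15, -0.18 and 0.21. Ifit1, Ifit2 and Bst2 lay at 0.12, -0.11 and -0.14 there, and the others between -0.10 and 0.01. Ifih1 was 0.00 below zero with array weights, and Ifnar1 was 0.00 with quantile normalisation and median centring, 0.01 with array weights and 0.09 with the mean of probe sets. With 1 array left out Oasl ranged from -0.14 to 0.00, Ifih1 from -0.02 to 0.03, Rigi from -0.07 to 0.03, Cxcl11 from -0.14 to 0.06 and Ifnar1 from -0.04 to 0.02. The cause of these changes was not tested.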
